A study of Mus musculus with 8 samples.

Results

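To ask what the loss of the second Nfkbia allele changed in fetal hematopoietic stem cells, LT-HSCs of IκBα KO embryos were compared with LT-HSCs of IκBα HET embryos, which still carried 1 intact allele. The comparison used 5 of the 8 RNA-seq libraries of the series, chosen by genotype: KO1 and KO2 against HET1, HET2 and HET3. The 3 WT libraries were left out. Every library came from 500 LT-HSCs (lineage-negative SCA1+ cKIT+ CD48- CD150+ cells) sorted from the liver of embryos at E14.5. All 5 carried the targeted Nfkbia allele of 1 knockout line, in 1 copy (HET) or 2 copies (KO), in every cell of the embryo rather than in blood alone. HET1 was the only male library and the only one labelled total RNA, whereas HET2, HET3, KO1 and KO2 were female and labelled polyA RNA. Sex and this label therefore cannot be told apart here. The methods state that a further KO library was discarded for its sequencing quality. Between 17895973 and 21409493 reads were counted per library, and 18644 of 55487 genes had 10 or more reads over the 5 libraries and were tested.

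IκBα, the protein of Nfkbia, holds NF-κB dimers such as RELA with NFKB1 in the cytoplasm and carries them out of the nucleus when a signal ends. On a stimulus such as TNF the IKK kinases phosphorylate it, it is degraded, and the released NF-κB switches on its targets, Nfkbia itself among them. IκBβ (Nfkbib) and IκBε (Nfkbie) are its close relatives. In blood stem cells NF-κB and interferon signals are known for their influence on emergence, quiescence and self-renewal.

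The targeted gene matched the labels in all 5 libraries. Nfkbia (ENSMUSG00000021025, chr12:55489410-55492647, minus strand, GRCm38) had 439, 574 and 243 reads in HET1, HET2 and HET3, but 1 read in KO1 and 0 reads in KO2. In CPM (reads scaled to library size with TMM factors) this was 22.8, 28.3 and 14.1 in HET (21.8 ± 7.17, SD, n = 3) against 0.0478 and 0 in KO. With the KO libraries set to 3 reads each, its level was at least 151-fold lower than in HET. Its Benjamini-Hochberg adjusted p over all genes was 0.206 in edgeR's quasi-likelihood test.

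The promoters of 4 genes show the kind of sequence through which these pathways act, taken from RefSeq (GRCm38.p6) as the 250 bases before the gene start. They belong to the deleted gene, to Tnip1 and B2m from the NF-κB and antigen presentation lists, and to Alas2, an erythroid gene, and apart from Nfkbia they were chosen after their values were seen. Capitals in Nfkbia (chr12:55492648-55492897, minus strand) and Tnip1 (chr11:54962941-54963190, minus strand) mark a match to κB letters on either strand (GGG, any 2 bases, then TTTCC or TTCCC), which 2.72% of 27025 promoters held. In B2m (chr2:122147437-122147686, plus strand) the first run of capitals matches the interferon-response letters on either strand (GAAA, any 2 bases, then GAAA again, in 3.04% of promoters) and the second the κB letters. In Alas2 (chrX:150547167-150547416, plus strand) they mark the GATA letters AGATAA on the opposite strand (10.3% of promoters). The κB match began 29 bases before the gene start in Nfkbia, 57 in Tnip1 and 126 in B2m. Such a match describes the letters and no bound site.
Nfkbia: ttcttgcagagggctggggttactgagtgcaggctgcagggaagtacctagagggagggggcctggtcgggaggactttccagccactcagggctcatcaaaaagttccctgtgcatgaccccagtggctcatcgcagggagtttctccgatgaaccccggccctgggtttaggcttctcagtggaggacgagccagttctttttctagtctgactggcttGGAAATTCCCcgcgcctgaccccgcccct
Tnip1: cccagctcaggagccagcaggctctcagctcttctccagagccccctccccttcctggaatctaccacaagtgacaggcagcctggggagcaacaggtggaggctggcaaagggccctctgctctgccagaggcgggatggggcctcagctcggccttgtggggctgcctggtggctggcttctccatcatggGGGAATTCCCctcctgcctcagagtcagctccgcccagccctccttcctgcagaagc
B2m: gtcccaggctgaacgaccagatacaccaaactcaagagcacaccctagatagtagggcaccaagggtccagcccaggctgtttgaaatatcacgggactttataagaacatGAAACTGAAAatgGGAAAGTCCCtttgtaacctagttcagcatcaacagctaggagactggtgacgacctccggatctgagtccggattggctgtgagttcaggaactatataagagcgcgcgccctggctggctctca
Alas2: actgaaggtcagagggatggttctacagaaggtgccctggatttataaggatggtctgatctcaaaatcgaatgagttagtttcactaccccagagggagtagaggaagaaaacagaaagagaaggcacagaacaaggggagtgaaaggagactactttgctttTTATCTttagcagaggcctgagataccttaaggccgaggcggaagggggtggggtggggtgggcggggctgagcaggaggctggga

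Before the results, 1 library has to be set apart because it went against its label. Several genes of the LT-HSC gate and of stem cell identity were nearly missing from HET3. Ly6a, which encodes SCA1, was 19.5 and 13.8 CPM in HET1 and HET2 and 50.2 and 40.7 in KO1 and KO2, but had 0 reads in HET3. Procr, the receptor EPCR of stem cells, was at 1.10 CPM in HET3 against 29.96 to 94.6 elsewhere, and the transcription factor Mecom at 1.33 against 47.8 to 174. Kit, in contrast, was 166 CPM in HET3, between 132 and 226 in the others. Summed over 12 fetal hepatocyte markers HET3 had 790 CPM, against 148 and 213 in HET1 and HET2 and 48.8 and 314 in KO1 and KO2. All 8 gate genes were nevertheless higher in both KO libraries than in HET1 and HET2, as were 25.8% of all genes.

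**Figure D1:**
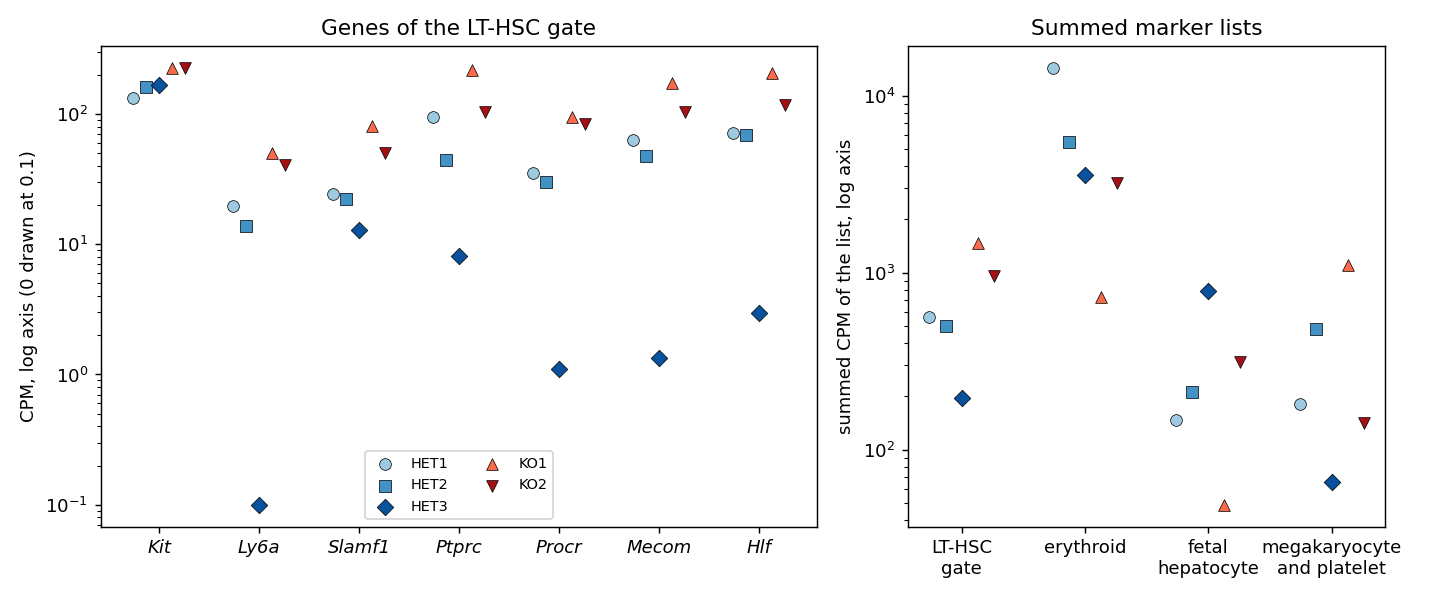
CPM of 7 genes of the LT-HSC gate (left) and summed CPM of 4 marker lists (right) in each library, on log axes. HET3 had 0 reads of Ly6a, drawn at 0.1, and lay below the other libraries for every gate gene shown but Kit, while the erythroid sum ran from 730 CPM in KO1 to 14400 CPM in HET1.

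Other cell types also differed between libraries. The 13 erythroid markers tested summed to 14400, 5480 and 3560 CPM in HET1, HET2 and HET3 and to 730 and 3200 CPM in KO1 and KO2, with all HET sums above both KO sums. Klf1, the master factor of red cell genes, was 715, 920 and 1201 CPM in HET and 35.4 and 507 in KO. Megakaryocyte markers summed to 1110 CPM in KO1 and to between 65.5 and 478 in the other libraries. The 11 neutrophil and myeloid progenitor markers summed to 420, 601 and 121 CPM in HET1, HET2 and HET3. In KO1 and KO2 they summed to 555 and 148 CPM, with 6 members higher and 5 lower in KO. KO1 alone held the late neutrophil genes Camp (34.3 CPM) and Ngp (8.08 CPM), which had 0.174 CPM or less elsewhere. In such bulk samples fewer cells of a type and less RNA per cell cannot be told apart, and the part of these cells in the results was not tested.

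Principal component 1 held 57.4% of the variance. HET3 and KO1 were its ends (scores -151 and 117), with HET2 (-20.8), HET1 (14.8) and KO2 (39.4) between them. KO2 correlated more closely with HET2 (Pearson's r of 0.957 across genes, which are not independent) than with KO1 (0.948). Because of this, results are given below also without HET3 and without KO1. Without KO1 the KO arm is 1 library whose spread is taken from HET alone, so that fewer genes at a given p follow in part from the design.

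No gene had both an adjusted p under 0.05 and a log2 fold change beyond 1 in either direction in edgeR's quasi-likelihood test (0% higher, 0% lower, lowest adjusted p 0.176). At an unadjusted p under 0.05, 1343 genes (7.2%) were higher and 1424 (7.64%) lower in KO. Both KO libraries lay above all HET libraries in 4404 genes (23.6%) and below them in 3588 (19.2%). DESeq2 with apeglm shrinkage, the tool of the study's methods, called 126 genes higher (0.676%) and 45 lower (0.241%), and its Wald test without shrinkage 159 (0.853%) and 73 (0.392%). By the sign of the fitted difference alone 53.9% of all genes were higher and 46.1% lower. The number at an unadjusted p under 0.05 was 2767 in all, 712 without KO1 and 1209 without HET2. The median log2 fold change of all genes was 0.08, and 0.31 when scaled by library size only. The genes below are therefore named with their values, and "higher" and "lower" state the direction of the fitted difference without a call.

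**Figure D2:**
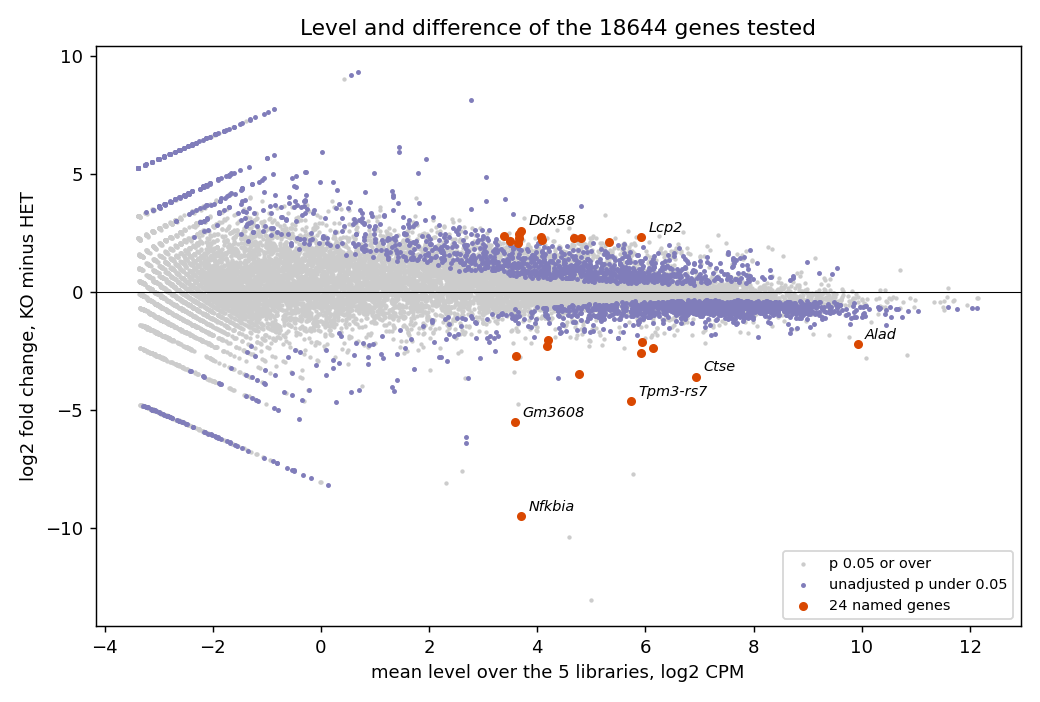
Mean level over the 5 libraries (log2 CPM) against the log2 fold change, KO minus HET, of each of the 18644 genes tested. The 24 genes named by level, p and separation of the groups are orange and lie between Nfkbia (-9.49) and Ddx58 (2.60), and genes at an unadjusted p under 0.05 are purple.

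The genes lower in KO with the largest differences, after Nfkbia, were led by a pair of sequence copies. Tpm3-rs7 (chr14:113314608-113316754, plus strand), a copy of the tropomyosin gene Tpm3, was 99.8, 90.5 and 68.9 CPM in HET and 4.26 and 2.74 in KO (24.7-fold lower, log2 fold change -4.62 ± 0.33, SE, adjusted p = 0.176 in edgeR). Tpm3 itself, chosen after its values were seen, went the other way, at 190, 151 and 133 CPM in HET and 384 and 323 in KO. Of the 50-base stretches of Tpm3-rs7 transcripts, the length of the reads, 69.4% also occur in Tpm3, so that reads of both cannot be told apart there. The pseudogene Gm3608 (chr1:105455971-105458829), 83.4% of whose stretches occur elsewhere and mostly in Capza1, was 19.04, 17.2 and 23.3 CPM in HET and 0.287 and 0.577 in KO. Rpl29 (7.18, 58.9 and 62.2 against 2.97 and 4.76 CPM), of the large ribosomal subunit, and Nup35 (23.4, 23.5 and 33.3 against 6.36 and 4.52 CPM), of the nuclear pore, shared 35.5% and 39.2% of their stretches with other genes. These 4 genes are uncertain for that reason.

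Several other genes of this group act in or are typical of red cells. Tspo2 (chr17:48447907-48451522), a cholesterol and porphyrin carrier of erythroblasts, was 69.96, 92.5 and 110 CPM in HET and 9.14 and 21.02 in KO (log2 fold change -2.59 ± 0.43, edgeR adjusted p = 0.332). Alad and Alas2 encode enzymes of heme synthesis. Alad (chr4:62509169-62519918) was 1020, 1276 and 1957 CPM in HET and 111 and 504 in KO, and Alas2, the first enzyme of the red cell pathway, 208, 67.5 and 35.9 against 9.28 and 30.98. For Alas2 the gap between HET3 and KO2 was thus small, whereas the Alad groups stood further apart. The aspartic protease gene Ctse (212, 27.5 and 342 against 12.2 and 20.3 CPM), the ubiquitin ligase gene Rnf128 (5.41, 14.4 and 35.2 against 1.44 and 4.14 CPM) and Parm1 (20.1, 16.8 and 41.8 against 3.59 and 9.33 CPM) also belonged to the group. Without KO1, which had the lowest erythroid sum, the log2 fold change of Tspo2 was -2.11 and that of Alad -1.49.

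**Figure D3:**
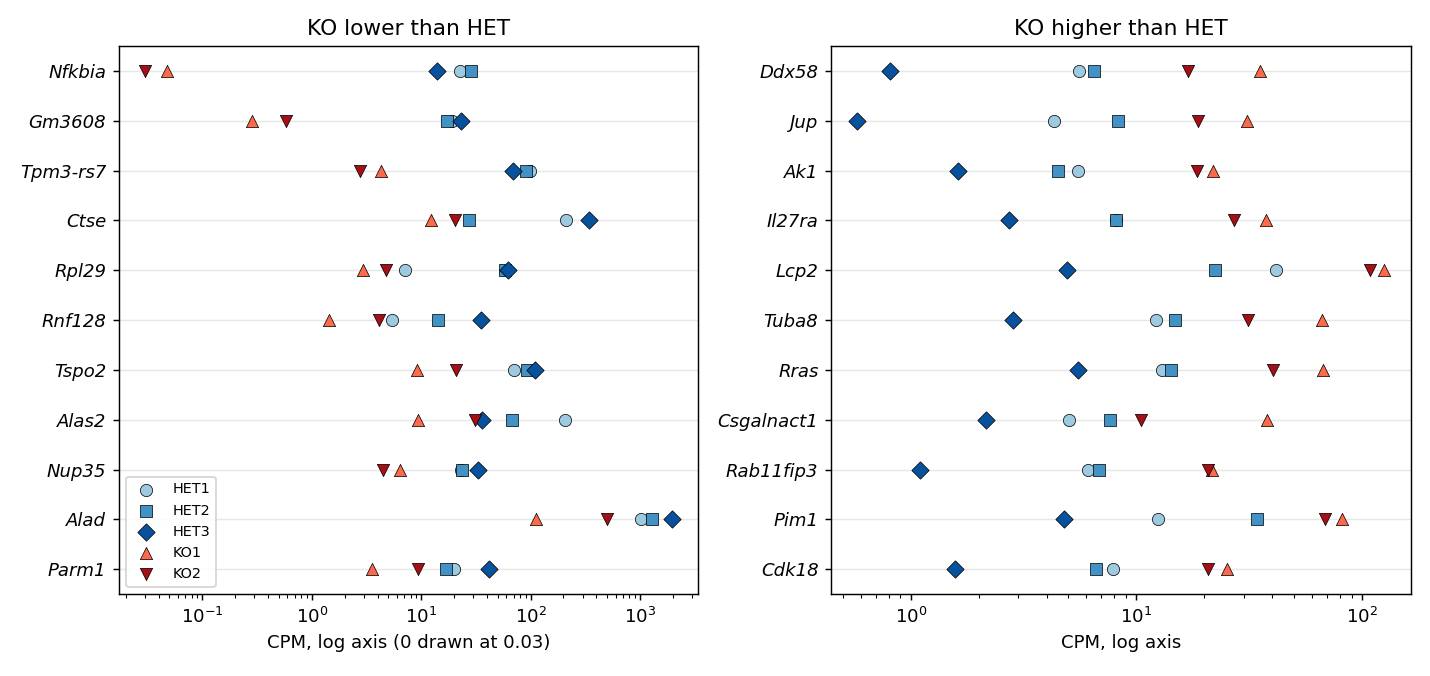
CPM of 11 genes lower in KO (left) and 11 higher in KO (right) from the 12 in each direction with the largest fitted differences, in each of the 5 libraries on a log axis. The groups do not overlap, which the choice of these genes required, and HET3 is the lowest library in all 11 genes on the right, with KO1 the lowest in 8 of 11 on the left.

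Among the 12 genes higher in KO the largest fitted difference was that of Ddx58 (chr4:40203773-40239828, minus strand), which encodes RIG-I, the cytoplasmic sensor of viral RNA. Its levels were 5.57, 6.47 and 0.813 CPM in HET and 35.3 and 16.9 in KO (6.10-fold higher, log2 fold change 2.60 ± 0.83, edgeR adjusted p = 0.332). Il27ra, the receptor chain of interleukin 27, was 8.17, 8.14 and 2.73 CPM in HET and 37.6 and 27.1 in KO (log2 fold change 2.35 ± 0.51, edgeR adjusted p = 0.332). Lcp2, the adaptor SLP-76 of immune receptor signaling, was 41.8, 22.5 and 4.93 CPM against 126 and 108. The serine/threonine kinase gene Pim1, induced by cytokine receptors, was 12.4, 34.3 and 4.76 CPM against 81.4 and 68.7. Rras, a small GTPase of integrin adhesion, was 13.1, 14.3 and 5.51 CPM against 67.1 and 40.5 (edgeR adjusted p = 0.332). In each of these genes HET3 was the lowest library.

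The group also held Jup (plakoglobin, of cell junctions), Ak1 (adenylate kinase), Tuba8 (an α-tubulin), Csgalnact1 (chondroitin sulfate synthesis), Rab11fip3 (recycling endosomes) and Cdk18 (a cyclin-dependent kinase of the PCTAIRE group). Their fitted log2 fold changes ran from 2.09 (Cdk18) to 2.49 (Jup), and from 1.64 (Cdk18) to 2.00 (Ak1) without HET3. Without KO1 they were smallest for Csgalnact1 (1.08), since KO2 with 10.5 CPM lay close to the 7.65 CPM of HET2. DESeq2 with apeglm called 6 of these 12 genes and 10 of the 12 lower ones. For the 12 higher genes the KO levels did not exceed those of all WT libraries in any case. Of the 12 lower genes Nfkbia, Gm3608 and Nup35 were below all 3 WT libraries, 2 of them by little. With CPM scaled over all 8 libraries, Nup35 was 7.14, 6.53 and 9.41 in WT. It was 6.49 and 4.61 in KO, but 23.8, 23.9 and 34 in HET. On that scale Gm3608 was 0.846 and 0.97 in WT1 and WT2 and 24.4 in WT3, against 0.293 and 0.588 in KO. Alas2, Cdk18, Il27ra, Lcp2, Pim1, Rab11fip3 and Tuba8 overlap a gene on the opposite strand, and since the strand setting of the counts was not stated, reads of such pairs may not be separated.

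In the NF-κB pathway the fitted differences followed the members' roles unevenly. Of 15 genes for subunits, inhibitors and kinases 12 were higher in KO, 3 of them at an unadjusted p under 0.05 (20%, against 7.2% of all genes). The other 3 were lower, all at that p (20%, against 7.64%), and 1 of these was the deleted Nfkbia itself. Scaled by library size only, 6 were higher and 2 lower at that p, and the median was 0.52 instead of 0.27. Relb, the subunit of the noncanonical pathway, was 4.06, 4.15 and 1.51 CPM in HET and 17.7 and 14.3 in KO (log2 fold change 2.31 ± 0.51, edgeR adjusted p = 0.332). Map3k14, the kinase NIK that activates that pathway, was 1.04, 1.28 and 0.348 CPM against 2.97 and 5.29. The inhibitors went opposite ways: Nfkbie was 11.9, 8.19 and 1.97 CPM in HET and 32.8 and 23.9 in KO, while Nfkbib was 95.5, 99.4 and 123 CPM against 64.6 and 84.5. Chuk, the kinase IKKα, was 86.2, 89.9 and 110 CPM against 54.7 and 58.8 (log2 fold change -0.75 ± 0.17, edgeR adjusted p = 0.332). The canonical subunits Rela (104, 109 and 126 against 118 and 129 CPM) and Nfkb1 (99.9, 98.1 and 116 against 128 and 125 CPM), chosen after their values were seen, had log2 fold changes of 0.13 and 0.27.

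Target genes of NF-κB were spread widely. Of 28 tested, Nfkbia and Relb included, 21 were higher and 7 lower, and 2 in each direction had an unadjusted p under 0.05, Relb and Tnip1 higher and Nfkbia and Sod2 lower (Sod2, a mitochondrial superoxide dismutase, had a log2 fold change of -0.81 and was chosen after its values were seen). This is 7.14% in each direction and close to the 7.2% and 7.64% of all genes. Both KO libraries lay above all HET libraries in 13 (46.4%, against 23.6% of all genes) and below them in 2 (7.14%, against 19.2%). Left without HET3, HET1, KO2 or KO1 in turn, 7, 6, 4 and 1 were higher at that p. Traf1, an adaptor of TNF receptors, was 2.13, 0.790 and 0.0580 CPM in HET and 5.93 and 6.35 in KO (log2 fold change 2.62 ± 1.13, edgeR adjusted p = 0.338). The adhesion receptor Icam1 was 16.96, 7.06 and 1.04 CPM against 33.8 and 22.2. The classical target Tnfaip3, which encodes the feedback inhibitor A20, was 1.77, 8.74 and 0.755 CPM against 7.27 and 4.43, and the antiapoptotic Birc3 20.9, 10.2 and 13.7 against 27.6 and 19.1. For these last 2 genes the groups overlapped. The median log2 fold change of the list was 0.98 against 0.08 over all genes, and 0.36 without KO1. Upstream, the receptor Tnfrsf1a of TNF (48.1, 38.1 and 9.98 against 112 and 77.6 CPM), the kinase gene Irak1 (73.4, 58.2 and 49.1 against 100.2 and 88.3 CPM), Ltbr (25.5, 17.8 and 14.6 against 47.4 and 37.5 CPM) and Tnip1, whose product binds A20 (25.1, 17.6 and 13.6 against 54.7 and 35.2 CPM), were higher in KO. The adaptor Myd88 had a log2 fold change of 0.00 ± 0.17, with 68.6, 71.9 and 80.4 CPM in HET and 80.03 and 66.8 in KO. None of these 28 receptor signaling genes was lower at an unadjusted p under 0.05 and 5 were higher (17.9%), with 3 without HET2 or KO2, 8 without HET3 and 0 without KO1.

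Genes of interferon response and antigen presentation were higher in KO as far as the fitted direction goes. Of 33 interferon-stimulated genes 30 were higher, and in 23 of them (69.7%, against 23.6% of all genes) both KO libraries lay above all HET libraries. Only 4 (12.1%, against 7.2%) had an unadjusted p under 0.05, among them Mx2 (0.208, 0.0987 and 0.0580 against 1.20 and 2.12 CPM), Tap1 (13.4, 9.57 and 8.01 against 32.05 and 19.1 CPM) and Ddx58. The other one, chosen after its values were seen, was Cd274, which encodes the checkpoint ligand PD-L1. Without HET3 that number was 11 and without KO1 it was 1. Ifit1 was 1.66, 1.53 and 0 CPM in HET and 8.47 and 9.38 in KO. The median of the list was 1.29 and 0.80 without HET3. Of 17 genes of MHC class I presentation 14 were higher, 6 (35.3%) at an unadjusted p under 0.05, 3 without HET1 and 2 without KO1. Tapbp (tapasin, which loads peptides) was 37.6, 46.8 and 39.7 CPM in HET and 77.8 and 75.5 in KO (log2 fold change 0.89 ± 0.17, edgeR adjusted p = 0.332). B2m, the light chain, was 649, 638 and 298 CPM against 1293 and 854, and H2-K1 106, 165 and 55.7 against 317 and 191. H2-D1 was 168, 215 and 170 CPM against 369 and 241, so that KO2 lay near HET2.

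Genes of the HSC surface list had the largest median of the 31 functional lists with all 5 libraries in edgeR (1.73). This did not hold without both HET3 and KO1, where it was 0.80 against 0.89 for the endothelial list. Nor did it hold for the shrunken values of DESeq2 with apeglm, where it was 0.16 against 0.26 for MHC class I presentation. All 25 tested genes of the HSC surface list were higher in KO, and 20 of them (80%, against 23.6% of all genes) lay above all HET libraries. Slamf1, which encodes the sorting marker CD150, was 24.3, 22.2 and 12.8 CPM in HET and 81.4 and 49.98 in KO (log2 fold change 1.73 ± 0.35, edgeR adjusted p = 0.332). The adhesion receptor Adgrg1 was 397, 346 and 235 CPM against 920 and 650, endoglin (Eng) 38.8, 30.2 and 14.7 against 98.9 and 63.97, and Kit 132, 162 and 166 against 226 and 223. Procr was 35.5, 29.96 and 1.10 CPM against 94.6 and 83.8 (log2 fold change 2.01 ± 1.11, edgeR adjusted p = 0.396). The list median was 1.26 without HET3 and 1.22 without KO1. With all libraries 6 genes were higher at an unadjusted p under 0.05, with 20 without HET3 and 3 without KO1, where over all genes these numbers were 1343, 1432 and 380. Without both HET3 and KO1, 20 of the 25 genes were higher.

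Transcription factors of stem cells were mixed. Both KO libraries lay above all HET libraries in 19 of 26 (73.1%, against 23.6% of all genes). They lay below them in 4 (15.4%, against 19.2%), and the list median was 1.15. Gata2, a factor of HSC emergence and maintenance, was 74.6, 39.4 and 33.7 CPM in HET and 176 and 135 in KO (log2 fold change 1.66 ± 0.37, edgeR adjusted p = 0.332). Runx1 was 79.8, 74.2 and 35.8 CPM against 152 and 93.9, Hhex 179, 145 and 82.9 against 324 and 241, and Hlf 70.8, 68.99 and 2.96 against 205 and 117. Gfi1 (38.5, 25.4 and 1.51 against 85.8 and 74.03 CPM) and its paralog Gfi1b (317, 361 and 561 against 111 and 224 CPM) differed in opposite directions, Gfi1b being a factor of red cells and megakaryocytes. Of 26 factors 19 were higher and 7 lower, 3 (11.5%) and 1 (3.85%) at an unadjusted p under 0.05, near the 7.2% and 7.64% of all genes, and those higher at that p were 13 without HET3, but 1 without HET2 and 1 without KO1. The 17 Hox genes tested were all higher with all libraries (median 1.56), but 13 were higher and 4 lower without KO1, and 12 and 5 without both HET3 and KO1, where the median was 0.56. Without HET3 it was 1 and 16 were higher. Hoxa9 was 57.2, 39.4 and 1.92 CPM against 124 and 70.5, and Hoxa7 13.6, 9.48 and 0.813 against 35.2 and 20.01. Only 1 of them, Hoxa6, had an unadjusted p under 0.05, at no more than 0.957 CPM.

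Genes of endothelium and of the hemogenic endothelium, from which HSCs arise, were higher in 30 of 33 cases (median 1.57). Neurl3, a ubiquitin ligase gene of hemogenic endothelium, was 32.2, 16.2 and 1.63 CPM in HET and 102.2 and 63.8 in KO, and the transcription factor Sox18 21.5, 12.7 and 1.22 against 50.6 and 40.7. The inhibitory Smad6 was 6.66, 3.11 and 1.04 CPM against 11.5 and 7.70. In this list 5 genes (15.2%) had an unadjusted p under 0.05, 14 without HET3 and 2 without KO1. Of all genes 1343 (7.2%) were higher at that p with all libraries and 1432 without HET3. Both KO libraries lay above all HET libraries in 20 genes of the list (60.6%, against 23.6% of all genes) and below them in 0. Genes of SMAD and TGF-β receptor signaling were higher in 14 of 18 cases (median 0.80). Tgfbr1 was 19.8, 18.8 and 14.2 CPM against 32.1 and 35.5 (log2 fold change 0.94 ± 0.24, edgeR adjusted p = 0.332), and Bmpr2 19.2, 20.9 and 10.9 against 36.2 and 34.2. Among cytokine receptors the shared chain Il2rg was 62.8, 65.6 and 43.5 CPM against 141 and 111. Among adhesion genes the integrin Itga6 was 22.4, 30.5 and 15.8 CPM against 81.5 and 51.2, whereas Ackr1, a chemokine scavenger also known from erythroid cells, was 15.8, 10.4 and 4.59 against 1.34 and 4.09. Of the fetal HSC genes Igf2bp2 was 83.9, 50.2 and 26.3 CPM against 160 and 112, Dlk1 79.99, 63.3 and 43.1 against 142 and 108, and the imprinted Meg3 3.28, 1.14 and 0.580 against 9.04 and 13.3.

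**Figure D4:**
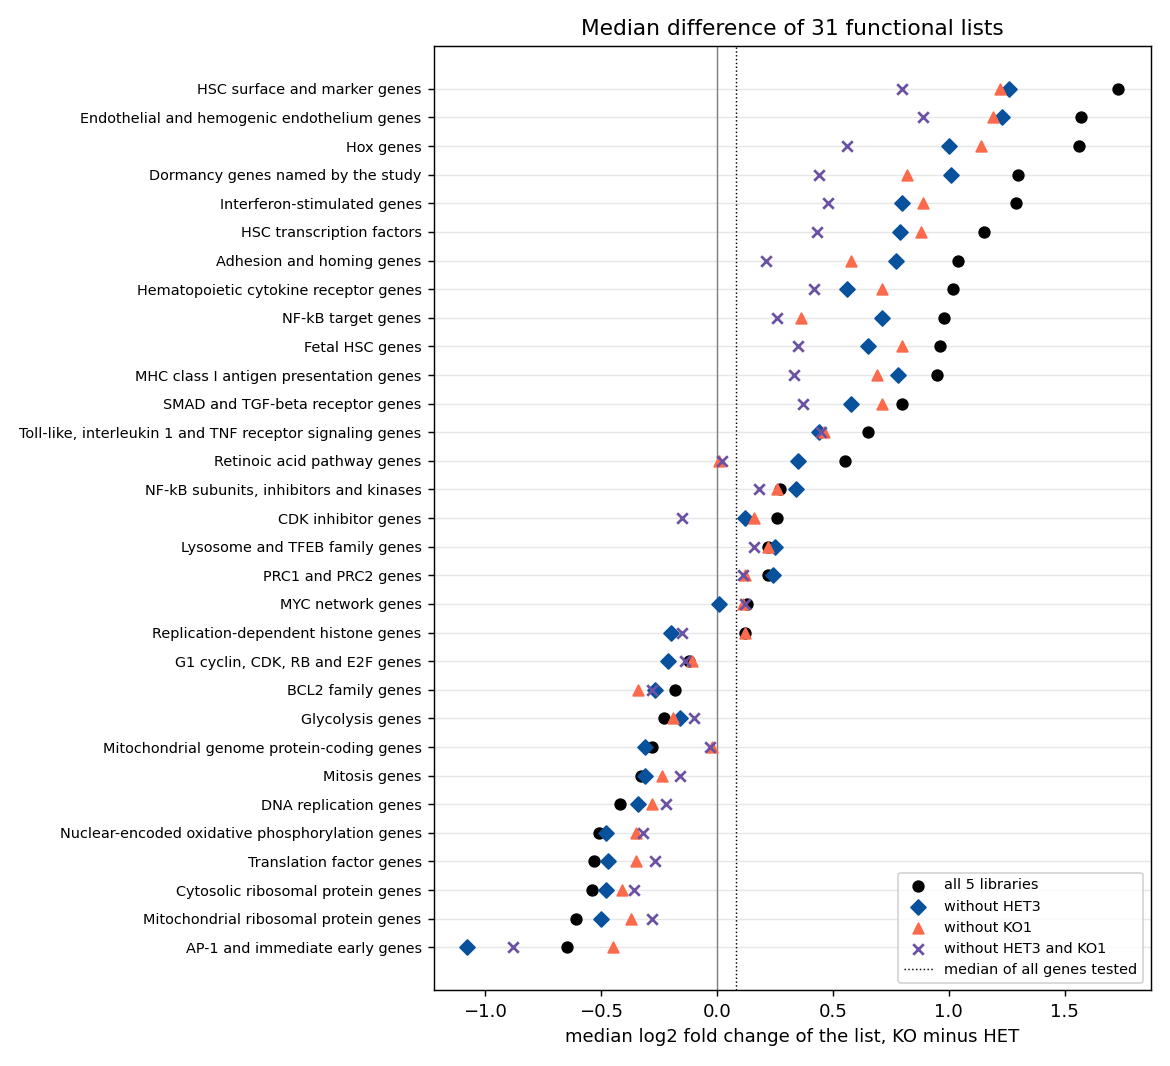
Median log2 fold change, KO minus HET, of 31 functional lists with all 5 libraries and without HET3, KO1 or both. The HSC surface and endothelial lists lie highest (1.73 and 1.57 with all libraries), and ribosomal, mitochondrial and immediate early lists lowest, while leaving out HET3 and KO1 moves most lists toward 0.

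The genes that the study tied to dormancy, the deep quiescence of stem cells, are described one by one. The study compared a published list of dormancy genes with RNA-seq data that include these samples, and named genes that differed. They are therefore no independent evidence. Cdkn1c, the CDK inhibitor p57 of quiescent HSCs, was 31, 24.9 and 6.38 CPM in HET and 79.2 and 54.3 in KO (log2 fold change 1.68 ± 0.62, edgeR adjusted p = 0.332). Cdk6, which promotes exit from quiescence, was 175, 201 and 213 CPM against 70.3 and 143, and Tfeb, the regulator of lysosome genes, 4.73, 2.07 and 3.54 against 8.66 and 7.60. The transglutaminase gene Tgm2 was 14.98, 23 and 10.8 CPM against 23.9 and 22.99, so that KO2 was level with HET2. Myc, the growth-promoting factor that is low in dormant cells, was 861, 740 and 1453 CPM against 231 and 821, with KO2 inside the HET range. Its relative Mycn was 65.4, 37.2 and 2.26 CPM against 254 and 161. Of 15 retinoic acid pathway genes 9 were higher and 6 lower. At an unadjusted p under 0.05 in edgeR, 1 was higher and 1 lower (6.67% each), near the 7.2% and 7.64% of all genes. Both KO libraries lay above all HET libraries in 4 (26.7%, against 23.6% of all genes) and below them in 3 (20%, against 19.2%). The receptor genes Rara (12.8, 6.61 and 4.76 against 18.8 and 13.5 CPM) and Rarg (2.08, 0.543 and 0.348 against 5.60 and 1.68 CPM) were higher. Rarg had a log2 fold change of 1.87, and KO2 lay inside its HET range. The median of this list, 0.55, was 0.01 without KO1.

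Polycomb genes differed by subunit. The catalytic and core subunits of PRC2 were lower in KO, Ezh2 at 199, 208 and 196 CPM in HET and 151 and 153 in KO (log2 fold change -0.40 ± 0.13, edgeR adjusted p = 0.332), Eed at 173, 166 and 208 against 129 and 146, and Suz12 at 141, 176 and 148 against 113 and 128. The alternative catalytic subunit Ezh1 was 13.1, 12.04 and 13.1 CPM against 27.5 and 13.2. The PRC1 subunit Cbx2 was 6.87, 6.71 and 4.93 CPM against 15.8 and 21.3 (log2 fold change 1.59 ± 0.32, edgeR adjusted p = 0.332), and Cbx6 11.1, 16.4 and 9.69 against 26.6 and 26.4. Of 27 genes 17 were higher and 10 lower, 4 (14.8%, against 7.2% of all genes) and 3 (11.1%, against 7.64%) at an unadjusted p under 0.05. The median was 0.22, and 0.12 without KO1. At that p 2 were higher without HET2. Scaled by library size only, 2314 of all genes were higher and 761 lower at that p, instead of 1343 and 1424. Of the 27 genes 22 were higher and 5 lower with that scaling, 10 and 1 at that p, with a median of 0.48. None was lower at that p without HET2 or without KO1.

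Genes of proliferation were lower in KO. Of 39 DNA replication genes 35 were lower, 18 of them (46.2%, against 7.64% of all genes) at an unadjusted p under 0.05, and 7 to 9 without KO1 or any 1 of the HET libraries. Scaled by library size only, 29 were lower, 7 at that p, and the median was -0.19 instead of -0.42. The sliding clamp Pcna was 170, 217 and 232 CPM in HET and 99.6 and 123 in KO (log2 fold change -0.89 ± 0.20, edgeR adjusted p = 0.332). Rrm2, the small subunit of ribonucleotide reductase, was 527, 479 and 660 CPM against 192 and 335, and Rpa3 174, 195 and 188 against 123 and 128. The helicase subunit Mcm2, in contrast, was 393, 385 and 479 CPM against 322 and 452, with overlapping groups. Of 30 mitosis genes 27 were lower, 9 (30%) at an unadjusted p under 0.05, 2 without KO1, 4 without HET3, 5 without HET2 and 14 without KO2, and scaled by library size only 20 were lower and 10 higher (median -0.10 instead of -0.33). Birc5 (survivin) was 544, 611 and 628 CPM against 321 and 408, Ccnb1 272, 280 and 371 against 139 and 246, and the topoisomerase Top2a 529, 442 and 479 against 394 and 454. The proliferation marker Mki67 was 289, 262 and 250 CPM against 181 and 258, so that KO2 lay inside the HET range.

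The lists with the most members below the HET range served translation and respiration. All 35 translation factor genes were lower (median -0.53), 29 of them (82.9%, against 19.2% of all genes) below every HET library. Eif4e, the cap-binding factor, was 284, 314 and 396 CPM in HET and 163 and 241 in KO, and Eif2s1 534, 595 and 758 against 256 and 409. Of 78 cytosolic ribosomal protein genes 75 were lower (median -0.54), Rplp0 at 1115, 817 and 918 CPM against 575 and 552 (log2 fold change -0.75 ± 0.19, edgeR adjusted p = 0.332). Only reads with 1 place in the genome were counted, which lowers the counts of ribosomal protein genes with many copies in all libraries. Of 78 mitochondrial ribosomal protein genes 77 were lower (median -0.61), Mrps23 at 147, 168 and 173 CPM against 91.9 and 94.95 (log2 fold change -0.80 ± 0.15, edgeR adjusted p = 0.332), and Mrpl52 at 237, 306 and 324 against 88.97 and 162. Of 76 nuclear genes of oxidative phosphorylation 73 were lower (median -0.51), Uqcrq of complex III at 602, 705 and 471 CPM against 264 and 299, and Cox5a of complex IV at 281, 330 and 346 against 177 and 227.

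The counts of these lists depended on the libraries and the scaling. At an unadjusted p under 0.05, 19 translation factor, 42 ribosomal protein, 51 mitochondrial ribosomal protein and 49 oxidative phosphorylation genes were lower in KO, against 0, 4, 3 and 1 without KO1, 29, 40, 63 and 53 without KO2, 5, 6, 14 and 7 without HET2, 8, 21, 25 and 23 without HET3, and 16, 18, 30 and 25 when scaled by library size only. With all libraries these were 54.3%, 53.8%, 65.4% and 64.5% of the lists, against 7.64% of all genes. Over all 18644 genes tested 1424 were lower at that p, 332 without KO1, 2086 without KO2, 468 without HET2, 765 without HET3 and 761 by library size only. That scaling gave medians of -0.30, -0.31, -0.37 and -0.28. The medians without KO1 were -0.35, -0.41, -0.37 and -0.35, and 66 of the 78 mitochondrial ribosomal protein genes were lower in KO2 than in every HET library (84.6%, against 26.7% of all genes). The erythroid sum was lower in both KO libraries too, and highest in HET1, where among the HET libraries the sums of all 4 lists were lowest. Its part in them was not tested. The 7 protein-coding genes of the mitochondrial genome tested had a median of -0.28 with all libraries and of -0.02 without KO1, with mt-Co1 at 2745, 3412 and 3490 CPM in HET and 2096 and 2927 in KO.

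**Figure D5:**
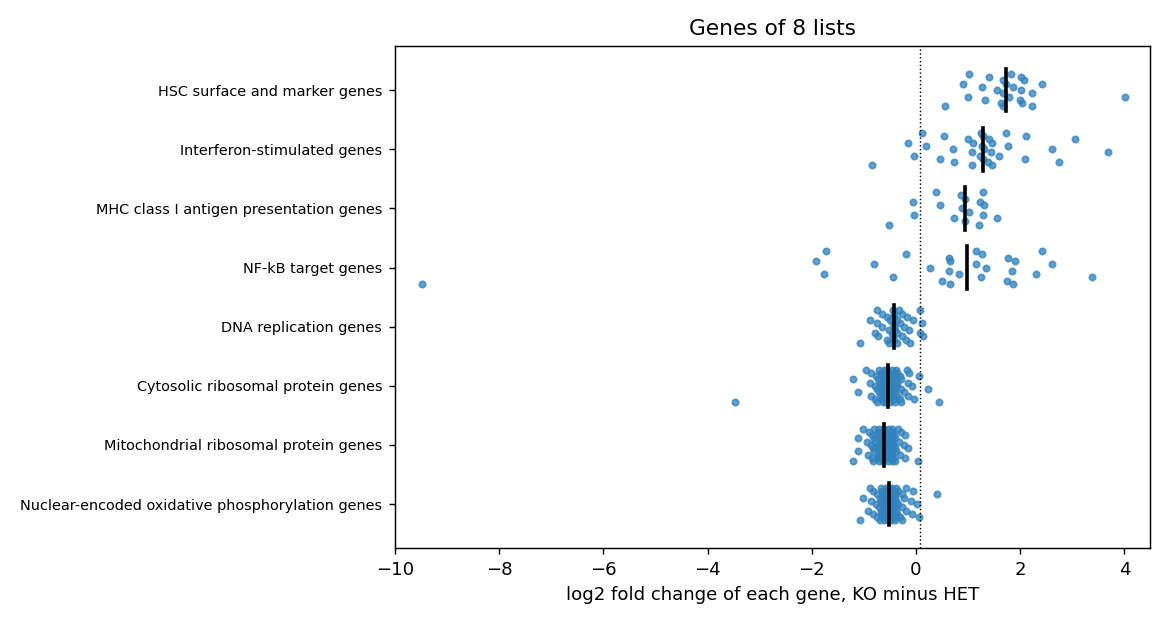
Log2 fold change, KO minus HET, of each gene of 8 lists (points) with the list median (bar) and the median of all genes tested (0.08, dotted line). All 25 HSC surface genes lie to the right of 0 and 77 of 78 mitochondrial ribosomal protein genes to the left, and the far left point among the NF-κB target genes is Nfkbia itself.

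Carbohydrate and lysosome genes split. The pyruvate kinase gene Pkm was 394, 299.8 and 363 CPM in HET and 591 and 466 in KO, and Pdk2, which restrains the entry of pyruvate into mitochondria, 26.1, 29.8 and 23.97 against 51.9 and 41.6. Its relative Pdk1 (131, 125 and 169 against 80.2 and 97.1 CPM) and lactate dehydrogenase Ldha (1850, 2063 and 2999 against 1205 and 1817 CPM) were lower. Of 26 lysosome genes 18 were higher and 8 lower, 6 higher (23.1%) and 1 lower (3.85%) at an unadjusted p under 0.05, with 3 higher without HET2 and 0 without KO1. Of all genes 7.2% were higher and 7.64% lower at that p, and 741 genes were higher without HET2. Progranulin (Grn) was 68.4, 52.5 and 33.4 CPM against 141 and 99.2, and the membrane protein gene Lamp1 397, 428 and 510 against 316 and 348. In the G1 machinery Cdk2 was 148, 120 and 123 CPM against 207 and 205, and the repressor E2f4 613, 743 and 971 against 260 and 485. Of the BCL2 family, Bid was 138, 152 and 148 CPM against 70.2 and 97.02 and the p53 target Bbc3 6.66, 9.97 and 2.96 against 18.9 and 14.1.

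Immediate early genes, which respond within minutes to growth signals and to handling of cells, varied between libraries of 1 genotype. Fos was 421, 772 and 123 CPM in HET and 110 and 320 in KO, Egr1 53.7, 57.1 and 5.05 against 6.07 and 32.1, and Atf3 0.364, 30.4 and 0.929 against 0.239 and 0.0481. HET2 held the highest value in each of them. The list median was -0.65 with all libraries, 0.15 without HET2 and -1.08 without HET3.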

How the data were processed

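RNA was sequenced on a HiSeq as 50-base single-end reads. The authors trimmed reads with Trim Galore 0.6.6, aligned them to GRCm38 with STAR 2.7.8 and deposited raw counts of uniquely placed reads per gene of Ensembl release 102. The strand setting was not given in the sources used here. A deposited table of normalized values, corrected for sex by the authors, was not used.

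Counts of KO1, KO2, HET1, HET2 and HET3 were taken as deposited. Genes with 10 or more reads summed over these libraries went into a quasi-likelihood fit (edgeR 4.0.16, R 4.3.3) with TMM factors and genotype as the only term. Sex was left out because HET1 was the only male library. A gene was called at a Benjamini-Hochberg adjusted p under 0.05 if its log2 fold change was also beyond 1 in either direction. The standard error was the log2 fold change divided by the square root of F. The study's methods used DESeq2 (version 1.38.3) with sex as a term and WT pooled with HET. DESeq2 1.42.0 with apeglm 1.24.0, other scalings, filters, terms, blocks and each library left out were alternatives. An exact permutation of 2 against 3 libraries cannot go below 0.2. In each direction the 12 genes with the largest log2 fold change were named among those with a mean of 10 CPM, an unadjusted p under 0.05 and groups that did not overlap, and in each list the preset leading genes with up to 2 of lowest p. Of the genes these rules take, 20 whose sign changed in some setting were left out of the text after their values were seen, while 5 such genes were kept. Some genes that these rules take are not reported here by name, but remain in the counts. The genes and lists were chosen with earlier results of these data known. Symbols and coordinates came from GENCODE M21, in which 260 gene identifiers had no symbol. The methods give separate mice per library. A level of 3 reads was 0.144 to 0.174 CPM, and these floors cover counting error only.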

Additional observations from a re-analysis of the deposited data

How the results depend on the processing

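With 2 KO and 3 HET libraries the results rest on few samples, 1 of which (HET3) went against its label. In edgeR no gene was called under another scaling, the stricter filter, a sex term, all 8 libraries, downsampling or any 1 library left out. By contrast the number of genes called in KO against HET was 1 with a filter of at least 1 read, 27 with the replicate number as a block, 232 with DESeq2's Wald test and 171 with apeglm. Only HET had a replicate number 3, so the block fitted HET3 by itself and took it out of the comparison. DESeq2's Wald test called 26 (without KO1) to 1239 genes (without KO2), with 586 without HET1, 55 without HET2 and 336 without HET3. Without both HET3 and KO1, an alternative chosen, like the DESeq2 fits with 1 library left out, after seeing the data, edgeR called 31, but there KO2 alone stood against HET1 and HET2 and was assumed to vary as they do. The number of genes at unadjusted p under 0.05 was 5587 over all 8 libraries with sex, 1052 without sex, 1684 without both HET3 and KO1, and 712 (without KO1) to 3210 (without KO2) with 1 library left out (1209 without HET2). The cause was not tested. Scaled by library size only, 75.3% of these genes were higher against 48.5%.

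The log2 fold change of Nfkbia in KO against HET passed the threshold at -9.71 with the replicate block, -9.84 with DESeq2's Wald test and -9.41 with apeglm. With the block HET3 had no part in the difference. The Nfkbia value was -12.01 without both HET3 and KO1, and ran from -11.72 (without KO1) to -8.65 (without KO2) with 1 library left out. Since KO2 had 0 reads of Nfkbia, the values without KO1 give the direction and no size. The bound given above is at least 151-fold. The methods say that litter mates were used where possible but tie no number to a litter, and 2 shared numbers cannot settle a pairing. With 2 KO libraries their deviations mirror each other, and those of same-numbered libraries correlated at 0.261 (KO1 and HET1) and -0.134 (KO2 and HET2). Of 180 other genes taken by the naming rules 155 kept their sign in 19 settings and 25 did not. Left out of the report for this were Cyp26b1, Dhrs3, Cdh5, Cdkn1a, Cdkn1b, Cdkn2d, Ccnd2, Ccnd3, Max, Rpl3, Cox7b, mt-Cytb, Ctsd, Jun, Mcl1, Itga4, Selp, Lin28b, Hist1h4c and Hist1h1c, so that the genes described are more stable than the rule would give. The others were Tnfaip3 (-0.25) and Myc (0.04) without both HET3 and KO1, Top2a (0.04) by library size only, Myd88 (0.25 by library size only, 0.06 with the block) and Mcm2 (0.12 by library size only, 0.22 without both). With 1 library left out Myd88 ran from -0.14 to 0.12 and Mcm2 from -0.38 to 0.11. Principal component 1 held 73.2% of the variance over the 500 most variable genes.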

Other observations

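Enzymes of heme synthesis, a list chosen after Alad and Alas2 had been seen, were lower in KO in 8 of 9 cases. Without Alad and Alas2, which prompted the list, 6 of 7 were lower, all 6 below every HET library (19.2% of all genes were) and 5 at an unadjusted p under 0.05 in edgeR (7.64% of all genes were lower at that p). Ppox was 98.8, 103 and 75.8 CPM in HET1, HET2 and HET3 and 32.7 and 42.8 in KO1 and KO2, and Fech, which inserts the iron, 594, 491 and 607 against 57.1 and 284. Alas1, the form of the first enzyme found in all tissues, was 72.8, 66.2 and 62.4 CPM against 83.9 and 75.3. The erythroid marker sum differed between the groups in the same direction, and its part in this list was not tested.

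In the WT libraries, which were no part of the comparison, 2 of 3 lay near KO for many named genes, both higher and lower in KO. Nfkbia itself was not among them, and the number was not counted. With CPM scaled over all 8 libraries, Tpm3-rs7 was 4.51, 3.54 and 72.3 in WT1, WT2 and WT3, against 4.34 and 2.79 in KO. Gata2 was 141, 150 and 28.5 CPM in WT, 179 and 138 in KO and 76.1, 40.1 and 34.3 in HET. Mrpl52 was 98.3, 87.6 and 371 CPM in WT, 90.7 and 165 in KO and 241, 312 and 330 in HET. Gata2 and Mrpl52 were chosen here after their values were seen. Ddx58 was 31.2, 42 and 4.34 CPM in WT, and Hlf 232, 275 and 15.9. Of the gate and stem cell genes, Procr was 170, 166 and 8.52 CPM in WT against 96.4 and 85.4 in KO. Ly6a was 63, 77.9 and 5.02 CPM against 51.1 and 41.5. In these genes, chosen after their values were seen, WT3 was low as HET3 was, while WT1 and WT2 lay above KO. Nfkbia was 45.5, 68.3 and 23.5 CPM in WT, with the lowest value again in WT3. Relb at 14.0, 10.6 and 2.04 CPM and Kit at 171, 214 and 148 were below both KO libraries in every WT library, and both were chosen here after their values were seen. Of 166 genes compared with WT in this way, KO lay above every WT library in 6, below in 5 and overlapped in 155.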
